A study of Mus musculus with 11 samples.

Results

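Restriction factors are proteins that block a step of viral replication inside the cell, and most of them are switched on by interferons, the cytokines that cells release after sensing foreign or misplaced nucleic acids. Secreted type I interferon acts through its receptor and transcription factors that include STAT2 and IRF9, which bind interferon-stimulated response elements in the promoters of their target genes. In mammary tumors such genes are read as a sign of interferon signaling in tumor cells and in the immune and stromal cells around them. The genes described here are 8 of the 26283 genes in the deposited tables, taken by their symbols: *Mx1* and *Mx2*, *Ifitm1*, *Ifitm2* and *Ifitm3*, *Bst2* (tetherin), *Rsad2* (viperin) and *Samhd1*.

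RNA was sequenced in bulk from mammary tumors of C57BL/6 mice aged 18 weeks, 6 of them PyMT *Pcbp1*–/– (called knockout tumors here) and 5 PyMT *Pcbp1*+/+ (wild-type tumors). Animals of both groups carried MMTV-PyMT, a viral oncogene under a mammary promoter, and MMTV-Cre; the groups differed in the *Pcbp1* alleles, which were floxed (fl/fl) in knockout and wild-type (wt/wt) in control animals. MMTV-Cre directs the deletion to mammary epithelium, while bulk RNA also holds the stromal and immune cells of a tumor. The labels give a single batch. The tables hold estimated counts per gene, which summed to between 10543189 and 14092192 per tumor, and CPM, the same counts scaled to a common total in each tumor; 3 counts corresponded to between 0.213 and 0.285 CPM.

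*Pcbp1*, the targeted gene, had 268, 271, 225, 220 and 259 CPM in wild-type replicates 1 to 5, and its lowest, median and highest values in knockout tumors were 15.4, 20.9 and 33.6 CPM. Every knockout value lay below every wild-type value, so each tumor matched its label. The luminal epithelial markers, led by *Cldn3* in knockout and *Cdh1* in wild-type tumors, summed to 1720 ± 314 CPM (SD, n = 6) in knockout and 1770 ± 237 CPM (SD, n = 5) in wild-type tumors, and none of the 8 was at 0 in any tumor.

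In deposited CPM, wild-type replicate 5 had the lowest value of its group for *Mx1*, *Mx2*, *Ifitm2*, *Ifitm3*, *Bst2*, *Rsad2* and *Samhd1*, and not for *Ifitm1*. The same tumor had 259 CPM of *Pcbp1*. Its basal epithelial markers summed to 93.9 CPM, against 831, 387, 264 and 303 CPM in replicates 1 to 4, and its macrophage markers to 195 CPM, against 364, 213, 430 and 307 CPM. It was also the lowest wild-type tumor for the summed markers of T cells (3.57 CPM), NK cells (0.447 CPM), B cells (0.714 CPM), plasmacytoid dendritic cells (7.79 CPM) and endothelium (44 CPM), and not for the other 6 marker lists. Replicate 2 lay close to it for *Mx1*, *Mx2* and the markers of macrophages, T cells (3.89 CPM) and B cells (0.759 CPM). The part of these cell types in the low values of replicate 5 was not tested. In replicate 5 a single gene, RP23-81C12.1, held 17% of the counts, against 11.3, 12.5, 12.3 and 10.5% in replicates 1 to 4. CPM is scaled to the total, so the order of values as close as those of *Mx1* in replicates 2 and 5 can depend on the scaling.

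Of the 8 genes, 7 passed edgeR's filter on low counts, and *Ifitm1* did not. With edgeR's quasi-likelihood test and Benjamini-Hochberg adjustment over all 19232 genes tested, *Mx1*, *Mx2*, *Bst2* and *Rsad2* were lower in knockout tumors at an adjusted p under 0.05, which is 4 of the 7 tested, where 1.66% of all genes tested were lower. *Ifitm2*, *Ifitm3* and *Samhd1* did not pass. None of the 7 was higher by edgeR, by DESeq2, by limma-voom or at an unadjusted p under 0.05, where 0.608% of all genes tested were higher by edgeR, 2.63% by DESeq2, 5.03% by limma-voom and 8.19% at that unadjusted p. The values of *Mx1*, *Mx2* and *Rsad2* did not overlap between the groups, 3 of the 7 against 2.02% of all genes tested that were lower without overlap. The median log2 fold change was -1.70 over the 7 genes and 0.00 over all genes tested. In bulk tumors, fewer cells of a type and less RNA per cell cannot be told apart.

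**Figure D1:**
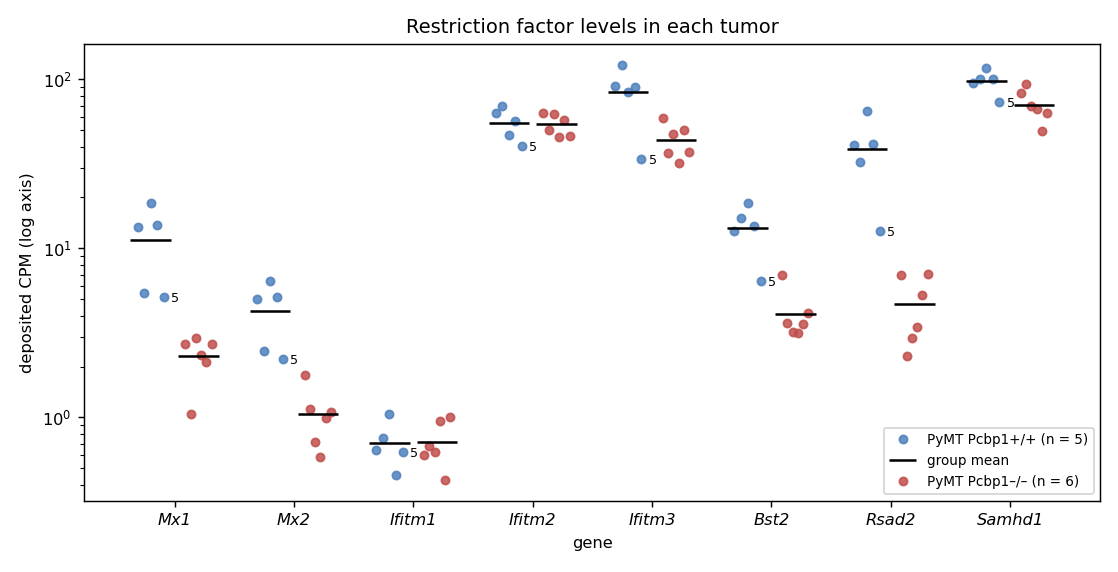
Deposited CPM of the 8 genes on a log axis, with a point for each wild-type (n = 5) and knockout (n = 6) tumor, a bar at each group mean, and wild-type replicate 5 marked 5. The groups separate for *Mx1*, *Mx2* and *Rsad2*, and overlap for the other genes.

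*Mx1* and *Mx2* encode dynamin-like GTPases that trap incoming viral ribonucleoproteins. In C57BL/6 and most other inbred strains both genes carry defective alleles that give no functional protein. RefSeq annotates both on this strain's genome as transcribed pseudogenes, and the deposited table lists *Mx1* as protein-coding and *Mx2* as a polymorphic pseudogene. On chromosome 16 (GRCm38), *Mx1* (ENSMUSG00000000386.15) spans 97447035 to 97462907 on the minus strand and *Mx2* (ENSMUSG00000023341.15) spans 97535308 to 97560900 on the plus strand. The genes tested between and beside them, *Bace2*, *Tmprss2* and RP23-5G10.2, did not pass (log2 fold changes of -0.27, -0.18 and -0.03).

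*Mx1* had 13.4, 5.41, 18.5, 13.7 and 5.18 CPM in wild-type replicates 1 to 5, and a lowest, median and highest value of 1.05, 2.52 and 2.94 CPM in knockout tumors. Replicates 2 and 5 were the low wild-type tumors, and both still lay above every knockout tumor. The means were 2.32 ± 0.685 CPM in knockout (SD, n = 6) and 11.2 ± 5.79 CPM in wild-type tumors (SD, n = 5), and the log2 fold change was -2.28 (SE 0.36, 95% CI -3.07 to -1.50, adjusted p = 0.00742 from edgeR). *Mx2* had the same order of wild-type tumors. It had 5.02, 2.47, 6.40, 5.19 and 2.23 CPM in wild-type replicates 1 to 5, and 0.585, 1.04 and 1.79 CPM as the lowest, median and highest knockout values. Again replicates 2 and 5 were low and the groups did not overlap. The log2 fold change of *Mx2* was -2.02 (SE 0.34, 95% CI -2.76 to -1.28, adjusted p = 0.0104 from edgeR), and its counts ranged from 8 to 73 per tumor.

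The log2 ratio of *Mx1* to *Mx2* within a tumor, which does not depend on how libraries are scaled, was 1.34 ± 0.16 (SD, n = 5) in wild-type and 1.16 ± 0.83 (SD, n = 6) in knockout tumors. The difference of -0.18 was within the spread (p = 0.647 by a two-sided exact permutation test, 0.809 adjusted over the 5 ratios tested), and its sign turned without knockout replicate 2 (0.08). With 1 CPM added to both genes the difference was -0.46 (p = 0.0714 by the exact permutation test, 0.0893 adjusted). The knockout tumors spread widely in this ratio, from -0.10 to 2.04. Of the 7 dynamin relatives of the Mx proteins, which cut or fuse cellular membranes, none passed edgeR's test in either direction. DESeq2 and limma-voom also gave 0, and none had an unadjusted p under 0.05. By edgeR 1.66% of all genes tested were lower and 0.608% higher, and at that unadjusted p 10.5% and 8.19%. A count of 0 among 7 genes is near these shares. *Dnm1l*, the most abundant of them and the GTPase of mitochondrial fission, averaged 58.1 ± 6.93 CPM in knockout (SD, n = 6) against 57.3 ± 3.68 CPM in wild-type tumors (SD, n = 5), and the median log2 fold change of the 7 was 0.02, against 0.00 over all genes tested.

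The IFITM proteins sit in plasma and endosomal membranes and hinder the fusion of enveloped viruses with them. *Ifitm3* acts mainly in late endosomes, *Ifitm2* in endosomes and *Ifitm1* mainly at the cell surface. Their genes lie together on chromosome 7 of GRCm38, *Ifitm2* (ENSMUSG00000060591.9) from 140954837 to 140955987 on the minus strand, *Ifitm1* (ENSMUSG00000025491.14) from 140967221 to 140969825 on the plus strand and *Ifitm3* (ENSMUSG00000025492.6) from 141009586 to 141010770 on the minus strand. The genes are close paralogs whose reads can be shared; the deposited counts of the 3 genes were whole numbers within 0.01 in all 11 tumors.

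*Ifitm3* had 91.8, 122, 84.5, 90.3 and 33.8 CPM in wild-type replicates 1 to 5, and 32.0, 42.6 and 59.3 CPM as the lowest, median and highest knockout values. Replicate 5 lay within the range of the knockout tumors, and the other 4 wild-type tumors lay above all of them. With means of 43.8 ± 10.3 CPM (SD, n = 6) and 84.4 ± 31.7 CPM (SD, n = 5), the log2 fold change of -0.94 did not pass (SE 0.25, 95% CI -1.48 to -0.39, adjusted p = 0.0740 from edgeR). Without replicate 5 it was -1.13 (SE 0.17) and passed, with an adjusted p of 0.00616 from edgeR. It also passed with all 11 tumors by DESeq2 (adjusted p = 0.0130) and by limma-voom with sample quality weights (adjusted p = 0.0168). It did not pass with other scaling, filters or gene sets in edgeR (adjusted p from 0.0721 to 0.0897) or by limma on log2 CPM (adjusted p = 0.138 and 0.140), nor in the other 10 omissions of a single tumor.

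*Ifitm2* differed little in mean, with 62.8, 70.0, 47.0, 57.0 and 40.5 CPM in wild-type replicates 1 to 5 and 45.8, 53.8 and 63.0 CPM as the lowest, median and highest knockout values. The knockout range lay within the wild-type range. The log2 fold change was -0.03 (SE 0.13, adjusted p = 0.934 from edgeR), with a 95% CI from -0.31 to 0.26, and its sign turned with limma-voom (0.01). Without wild-type replicate 5 it was -0.10. Its sign also turned without wild-type replicate 2 (0.07) and without knockout replicate 2, 4 or 6 (0.004, 0.014 and 0.007). *Ifitm1* was barely detected, at 5 to 13 counts per tumor, 0.713 ± 0.222 CPM (SD, n = 6) in knockout and 0.706 ± 0.221 CPM (SD, n = 5) in wild-type tumors. A fit without the filter on low counts gave it a log2 fold change of 0.01 with a 95% CI from -0.71 to 0.73 (adjusted p = 0.990 from edgeR). The interval spans differences in either direction.

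**Figure D2:**
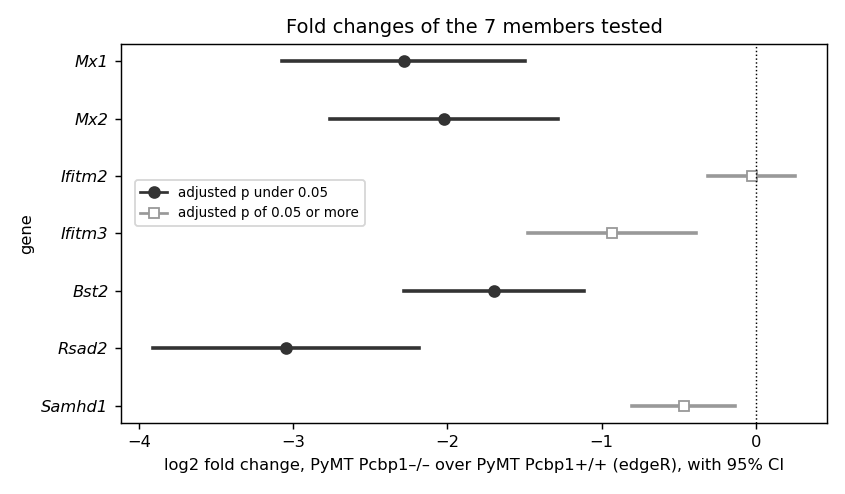
Log2 fold changes of the 7 genes tested, knockout (n = 6) over wild-type (n = 5), from edgeR, with 95% CI as bars; filled circles passed an adjusted p of 0.05 and open squares did not. *Rsad2* has the lowest value, -3.05, and the interval of *Ifitm2* spans 0.

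*Ifitm2* and *Ifitm3*, neighbors and paralogs, were compared within each tumor. Their log2 ratio within a tumor was -0.55, -0.80, -0.85, -0.66 and 0.26 in wild-type replicates 1 to 5, and 0.09, 0.35 and 0.52 were the lowest, median and highest knockout values. Replicate 5 again lay within the knockout range, and the other wild-type tumors were all negative. The mean ratio was higher by 0.84 in knockout tumors (p = 0.00649 by a two-sided exact permutation test over 462 regroupings, 0.0162 adjusted over the 5 ratios). Leaving out knockout replicate 2, 3, 4 or 6 took the adjusted p of this exact test to 0.0595, with differences of 0.82, 0.83, 0.81 and 0.85, and without wild-type replicate 5 the difference was 1.04. The ratios of *Ifitm1* to *Ifitm2* and to *Ifitm3* did not pass (differences of 0.03 and 0.87, adjusted p = 0.952 and 0.152, exact permutation tests).

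**Figure D3:**
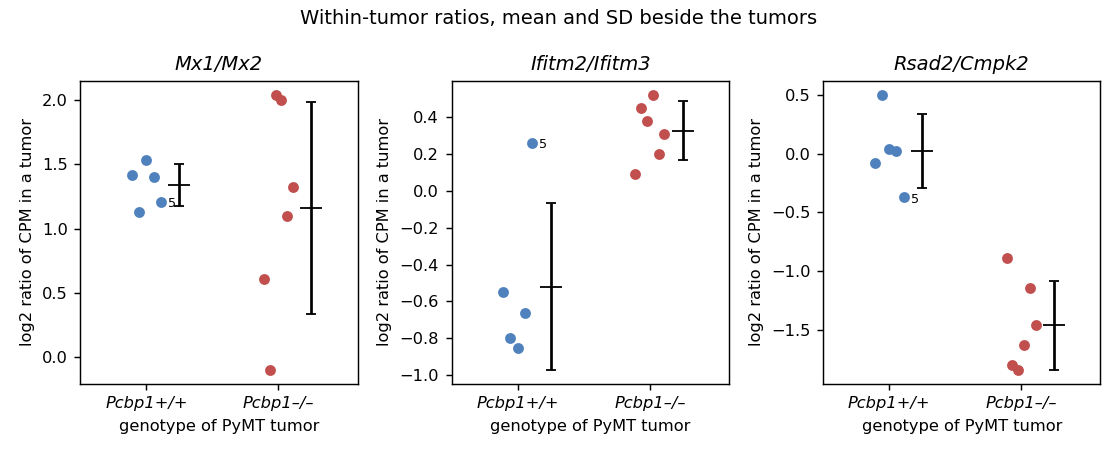
Log2 ratio of the CPM of 2 genes within each tumor, for *Mx1* over *Mx2*, *Ifitm2* over *Ifitm3* and *Rsad2* over *Cmpk2*, with a point per tumor, the mean and SD beside them, and wild-type replicate 5 marked 5. For *Rsad2* over *Cmpk2* the knockout tumors lie at or below -0.89 and the wild-type tumors at or above -0.37.

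Of the other IFITM genes, *Ifitm5*, which acts in bone mineralization, and *Ifitm10* could be tested, and *Ifitm6* and *Ifitm7* could not. Neither *Ifitm5* nor *Ifitm10* passed by edgeR, DESeq2 or limma-voom, and neither had an unadjusted p under 0.05. By edgeR 1.66% of all genes tested were lower and 0.608% higher, so that a count of 0 among these genes is near the shares. *Ifitm10*, the most abundant, averaged 10.4 ± 1.36 CPM in knockout (SD, n = 6) against 9.92 ± 4.39 CPM in wild-type tumors (SD, n = 5). The median log2 fold change of the tested relatives was -0.22, against 0.00 over all genes tested.

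Within 100 kb of the Ifitm genes, *Athl1* and *Ric8* passed and were lower in knockout tumors. *Athl1*, also called *Pgghg*, encodes a glycosidase of collagen disaccharides and spans 140941391 to 140947664 on the plus strand, 7173 bases from *Ifitm2*. It averaged 10.7 ± 2.52 CPM in knockout (SD, n = 6) against 19.8 ± 3.59 CPM in wild-type tumors (SD, n = 5), without overlap, and its log2 fold change was -0.88 (SE 0.16, adjusted p = 0.0132 from edgeR). *Ric8*, a chaperone of G protein alpha subunits, lies 90465 bases from *Ifitm2* and had a log2 fold change of -0.56 (SE 0.11, adjusted p = 0.0227 from edgeR). *Ric8* did not pass without knockout replicate 3, 4 or 5 (-0.50, -0.55 and -0.51) or wild-type replicate 3 or 4 (-0.53 and -0.52), with adjusted p up to 0.0690 from edgeR. *Ifitm2* lies between *Athl1* and *Ifitm3* on the chromosome. Around all 8 genes, 4 of the 34 other genes tested within 100 kb were lower and 0 higher by edgeR, with 8 lower and 3 higher at an unadjusted p under 0.05, 4 and 0 by DESeq2 and 7 and 1 by limma-voom. Of all genes tested, 1.66% were lower by edgeR, 10.5% at that unadjusted p, 3.96% by DESeq2 and 6.19% by limma-voom. The shares of all genes that were higher were 0.608%, 8.19%, 2.63% and 5.03% in the same order. The edgeR count of 4 was 2 without knockout replicate 3, 4 or 5 or wild-type replicate 3 or 4.

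**Figure D4:**
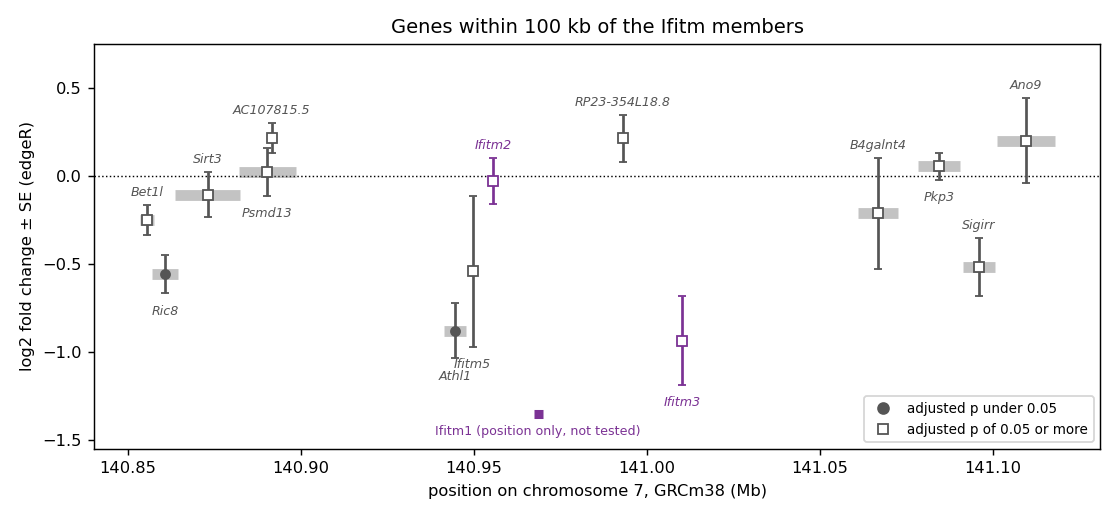
Genes tested within 100 kb of *Ifitm1*, *Ifitm2* and *Ifitm3* on chromosome 7 of GRCm38, placed by position (Mb), with the edgeR log2 fold change and its SE (knockout over wild-type, n = 6 and 5) and gene bodies as horizontal bars. Filled circles, *Athl1* at -0.88 and *Ric8* at -0.56, passed an adjusted p of 0.05; *Ifitm1* was not tested and only its position is drawn.

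*Bst2* encodes tetherin, a membrane protein that ties budding virions to the cell that made them, and the same protein is used in mice as a surface marker of plasmacytoid dendritic cells. The gene (ENSMUSG00000046718.8) spans 71534255 to 71537456 on chromosome 8 (GRCm38, minus strand). It had 12.6, 15.2, 18.5, 13.5 and 6.43 CPM in wild-type replicates 1 to 5, and 3.14, 3.57 and 6.92 CPM as the lowest, median and highest knockout values. The groups met only at knockout replicate 1, at 6.92 CPM, and wild-type replicate 5; the other 5 knockout tumors lay below every wild-type tumor. The means were 4.10 ± 1.43 CPM (SD, n = 6) and 13.2 ± 4.42 CPM (SD, n = 5), and the log2 fold change was -1.70 (SE 0.27, 95% CI -2.28 to -1.11, adjusted p = 0.00742 from edgeR).

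Other markers of plasmacytoid dendritic cells were set beside *Bst2*. Of 5 listed markers, the 4 found in the table summed to 8.48, 8.65, 11.5, 17.8 and 7.79 CPM in wild-type replicates 1 to 5 and to 11.0 ± 3.09 CPM (SD, n = 6) in knockout tumors. *Ccr9*, the most abundant, averaged 8.41 ± 2.80 CPM in knockout (SD, n = 6) against 7.81 ± 3.52 CPM in wild-type tumors (SD, n = 5), and none of the 4 was at 0 in any tumor. The sums overlapped between the groups, and the part of these cells in the level of *Bst2* was not tested. *Siglech*, a lectin that defines these cells, averaged 0.709 ± 0.704 CPM in knockout (SD, n = 6) against 0.937 ± 0.666 CPM in wild-type tumors (SD, n = 5). Of the 13 genes tested within 100 kb of *Bst2*, *Mvb12a* passed and was lower in knockout tumors, as were 1.66% of all genes tested. This gene, which encodes a subunit of the ESCRT-I complex that sorts membrane cargo and takes part in virus budding, starts 5466 bases from *Bst2* on the opposite strand and averaged 5.94 ± 0.817 CPM in knockout (SD, n = 6) against 12 ± 1.86 CPM in wild-type tumors (SD, n = 5); its log2 fold change was -1.02 (SE 0.15, adjusted p = 0.00585 from edgeR).

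*Rsad2* encodes viperin, a radical SAM enzyme that turns CTP into ddhCTP, a chain terminator of viral RNA polymerases. Its neighbor *Cmpk2* encodes a mitochondrial nucleoside monophosphate kinase on the path to CTP. On chromosome 12 (GRCm38), *Rsad2* (ENSMUSG00000020641.16) spans 26442746 to 26456452 on the minus strand and *Cmpk2* (ENSMUSG00000020638.8) 26469204 to 26479837 on the plus strand, so that they are transcribed away from each other with 12752 bases between their ends.

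*Rsad2* had 41.0, 32.4, 64.6, 41.7 and 12.7 CPM in wild-type replicates 1 to 5, and 2.32, 4.38 and 7.03 CPM as the lowest, median and highest knockout values. Replicate 5 was the low wild-type tumor and still lay above every knockout tumor. The log2 fold change of -3.05 (SE 0.40, 95% CI -3.91 to -2.19, adjusted p = 0.00337 from edgeR) ranked 7 among the 319 genes that were lower, where *Mx1* ranked 27, *Mx2* 35 and *Bst2* 50. *Cmpk2* had 43.5, 23.0, 62.6, 41.1 and 16.4 CPM in wild-type replicates 1 to 5 and 8.10, 11.2 and 19.3 CPM as the lowest, median and highest knockout values. Its groups overlapped, since replicate 5 lay below the highest knockout tumor. The log2 fold change of *Cmpk2* was -1.62 (SE 0.32, adjusted p = 0.0249 from edgeR). This call held in 5 of 11 omissions of a single tumor and was lost without knockout replicate 3, 4 or 5 (-1.58, -1.58 and -1.61) or wild-type replicate 1, 3 or 4 (-1.59, -1.29 and -1.60), with adjusted p up to 0.0684 from edgeR.

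*Rsad2* was then compared with its neighbor within each tumor. The log2 ratio of *Rsad2* to *Cmpk2* was -0.08, 0.50, 0.04, 0.02 and -0.37 in wild-type replicates 1 to 5, and -1.84, -1.54 and -0.89 were the lowest, median and highest knockout values. All 6 knockout tumors lay below all 5 wild-type tumors, replicate 5 included. The means differed by -1.48 (p = 0.00216 by a two-sided exact permutation test, which is the smallest that 462 regroupings allow, and 0.0108 adjusted over the 5 ratios). Over the 11 omissions of a single tumor the difference ranged from -1.59 to -1.36, and all 11 passed.

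*Samhd1* encodes a hydrolase that breaks down deoxynucleoside triphosphates and so starves reverse transcription and, in dividing cells, acts on DNA synthesis and repair. The gene (ENSMUSG00000027639.16) spans 157097533 to 157135265 on chromosome 2 (GRCm38, minus strand). It had 94.8, 101, 117, 101 and 73.8 CPM in wild-type replicates 1 to 5, and 49.7, 68.2 and 93.5 CPM as the lowest, median and highest knockout values. Of the knockout tumors, 4 of 6 lay below every wild-type tumor, and replicates 1 and 2 did not. The log2 fold change of -0.47 did not pass (SE 0.15, 95% CI -0.80 to -0.13, adjusted p = 0.131 from edgeR), and of the alternatives it passed only with limma-voom and sample quality weights (-0.58, adjusted p = 0.0213).

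Among 16 genes of nucleotide supply, chosen because viperin uses CTP and SAMHD1 deoxynucleotides, *Cmpk2* passed as lower and *Dck* as higher in knockout tumors. Of all genes tested, 1.66% were lower and 0.608% higher by edgeR. At an unadjusted p under 0.05, 2 of the 16 were lower and 5 higher, against 10.5% and 8.19% of all genes tested. DESeq2 gave 1 lower and 4 higher, against 3.96% and 2.63% of all genes. With limma-voom 2 were lower and 5 higher, against 6.19% and 5.03% of all genes. The median log2 fold change of the 16 was 0.12, against 0.00 over all genes tested. The edgeR count of 1 lower gene was 0 without knockout replicate 3, 4 or 5 or wild-type replicate 1, 3 or 4. Its count of 1 higher gene was 0 in 9 of the 11 omissions. That count was 1 without knockout replicate 2, where *Dck* did not pass, and 2 without wild-type replicate 2. *Dck*, the kinase that salvages deoxycytidine, had 17.1, 22.5, 21.1, 20 and 18.7 CPM in wild-type replicates 1 to 5 and 24.7, 27.4 and 36.5 CPM as the lowest, median and highest knockout values. All 6 knockout tumors lay above all wild-type tumors, and the log2 fold change was 0.51 (SE 0.12, adjusted p = 0.0481 from edgeR). This call sat at the threshold: it was lost with upper-quartile factors or no filter on low counts (adjusted p = 0.0534 and 0.0570 from edgeR) and without any single tumor other than wild-type replicate 2, with log2 fold changes from 0.44 to 0.57 and adjusted p up to 0.114 from edgeR. Higher values without overlap were seen for 4 of the 16, *Dck*, *Cmpk1*, *Rrm2* and *Dut*, where 1.27% of all genes tested were higher without overlap; the latter 3 did not pass edgeR's test. Markers of dividing cells, led by *Mki67*, summed to 298, 457, 376, 468 and 406 CPM in wild-type replicates 1 to 5 (401 ± 68.8 CPM, SD, n = 5) and from 394 to 630 CPM in knockout tumors (555 ± 82.9 CPM, SD, n = 6). Without *Mki67*, which averaged 449 CPM in knockout and 320 CPM in wild-type tumors, the others summed to 106 ± 17.8 CPM (SD, n = 6) and 81 ± 25.3 CPM (SD, n = 5). All 6 had log2 fold changes above 0, with a median of 0.45, and none was at 0 in any tumor. None passed edgeR's test, with 3 higher at an unadjusted p under 0.05, 3 by DESeq2 and 4 by limma-voom. Of all genes tested, 8.19% were higher at that unadjusted p, 2.63% by DESeq2 and 5.03% by limma-voom. The part of dividing cells in the values of the nucleotide supply genes was not tested.

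To set the levels of the 8 genes beside each other, CPM was divided by the length of a gene's merged exons in kb. These lengths came from another genome build than the counts, and that of *Ifitm3*, 1281 bases, exceeds its span given above. In wild-type tumors *Ifitm3* and *Ifitm2* stood highest, at 65.9 ± 24.8 and 55.5 ± 11.9 CPM per kb (SD, n = 5), and did not differ beyond their spread. *Bst2*, *Samhd1* and *Rsad2* followed at 10.9 ± 3.64, 10.7 ± 1.70 and 8.88 ± 4.32 CPM per kb (SD, n = 5), again within their spread, and then *Mx1* at 3.33 ± 1.72, *Mx2* at 1.18 ± 0.506 and *Ifitm1* at 0.565 ± 0.177 CPM per kb (SD, n = 5).

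In knockout tumors the means fell in a different order. *Ifitm2* stood above *Ifitm3*, at 54.2 ± 7.76 and 34.2 ± 8.02 CPM per kb (SD, n = 6), and *Samhd1* above *Bst2*, at 7.75 ± 1.68 and 3.38 ± 1.18 CPM per kb (SD, n = 6). *Rsad2*, at 1.08 ± 0.474 CPM per kb (SD, n = 6), lay near *Mx1*, 0.687 ± 0.203 CPM per kb (SD, n = 6). *Mx2* had the lowest level, 0.290 ± 0.117 CPM per kb (SD, n = 6), under that of *Ifitm1*, 0.570 ± 0.178 CPM per kb (SD, n = 6).

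The 8 genes were next set beside the rest of the interferon pathway. Of 14 genes of interferon signaling, 4 were lower in knockout tumors and 0 higher by edgeR, where 1.66% and 0.608% of all genes tested were. None was higher by DESeq2, by limma-voom or at an unadjusted p under 0.05 (2.63%, 5.03% and 8.19% of all genes tested). The median log2 fold change of the 14 was -0.36, against 0.00 over all genes tested. The 4 were *Irf7*, the transcription factor that amplifies interferon production (-2.89, SE 0.31, adjusted p = 0.00194 from edgeR), *Usp18*, a feedback inhibitor of the receptor (-1.63, SE 0.34, adjusted p = 0.0309 from edgeR), and *Stat2* and *Irf9*, parts of the factor that binds interferon-stimulated response elements. *Stat2* had a log2 fold change of -1.42 (SE 0.24, adjusted p = 0.0112 from edgeR) and *Irf9* of -0.85 (SE 0.17, adjusted p = 0.0254 from edgeR). *Irf7* and *Stat2* passed in all 11 omissions of a single tumor. *Irf9* did not pass without knockout replicate 3, 4 or 5 (-0.84, -0.84 and -0.81) or wild-type replicate 1, 3 or 4 (-0.84, -0.75 and -0.83), with adjusted p up to 0.0689 from edgeR. *Usp18* did not pass without knockout replicate 1, 3, 4 or 5 (-1.60, -1.66, -1.67 and -1.59) or wild-type replicate 1, 3 or 4 (-1.58, -1.41 and -1.59), with adjusted p up to 0.0809 from edgeR, or by limma on log2 CPM (adjusted p = 0.0671 and 0.0737 with 1 and 0.1 added). The count of 4 was 2 without knockout replicate 3, 4 or 5 or wild-type replicate 3 or 4. *Stat2* had 51.8, 57.0, 83.8, 55.3 and 25.4 CPM in wild-type replicates 1 to 5 and at most 27 CPM in knockout tumors. As for *Bst2*, the overlap came from wild-type replicate 5 and knockout replicate 1. The receptor genes *Ifnar1* and *Ifnar2* did not pass and had log2 fold changes of 0.09 and -0.02.

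Of 39 other antiviral effectors, 38 were tested. By edgeR 28 were lower and 0 higher, where 1.66% and 0.608% of all genes tested were. None of the 38 was higher by DESeq2, by limma-voom or at an unadjusted p under 0.05, against 2.63%, 5.03% and 8.19% of all genes tested. Lower values without overlap were seen for 18 of them, against 2.02% of all genes tested. The median log2 fold change was -1.11, against 0.00 over all genes tested. The lower genes included 4 of the Ifit genes, whose proteins bind foreign RNA, from -3.05 for *Ifit3b* to -1.02 for *Ifit2*, and 7 genes of the Oas family, which sense double-stranded RNA, from -2.92 for *Oas2* to -1.71 for *Oas1b*. *Isg15*, a ubiquitin-like modifier, had a log2 fold change of -2.62, between those of *Rsad2* and *Mx1*. Sensors of foreign nucleic acid and their regulators had -2.28 for *Dhx58*, -1.49 for *Zbp1*, -0.98 for *Ddx58* and -0.78 for *Ifih1*. With a single tumor left out, *Ifit2* passed only without knockout replicate 2 or wild-type replicate 5, and the other 9 omissions gave -1.07 to -0.93, with adjusted p up to 0.0863 from edgeR. *Ifih1* did not pass without knockout replicate 1, 3, 4 or 5 (-0.76, -0.77, -0.77 and -0.74) or wild-type replicate 1, 3 or 4 (-0.77, -0.69 and -0.70), with adjusted p up to 0.0895 from edgeR. By limma on log2 CPM neither passed, with adjusted p of 0.0595 and 0.0619 for *Ifit2* and 0.0547 and 0.0558 for *Ifih1*. *Apobec3*, a deaminase that acts on retroviral DNA, had -0.60 and did not pass.

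Which genes vary with a restriction factor among tumors of the same genotype was described by Pearson's r of log2(CPM + 1) after each genotype's mean was subtracted, over 11 tumors that share their library preparation; r is given as a description. Among the 8 genes, *Ifitm2* and *Ifitm3* had r = 0.884, and 0.878 without wild-type replicate 5. *Bst2* and *Rsad2* had r = 0.850, which was 0.669 without that tumor, and *Mx1* and *Mx2* had r = 0.754 and 0.646. *Samhd1* varied apart from *Rsad2*, with r = 0.254, and -0.202 without that tumor. The value for *Ifitm3* and *Mx1* also turned, from r = 0.366 to -0.219.

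Over all genes tested, those with the highest r to *Bst2* were *Sh2d4b* (0.947), *Stat2* (0.928) and *Apol9b* (0.911), and the values of the latter pair were 0.833 and 0.788 without replicate 5. *Rsad2* was closest to ENSMUSG00000105962.1, an unclassified gene model (0.924), *Oasl2* (0.923) and *Ddx60* (0.923). *Mx1* was closest to *Trafd1* (0.954), *Il2rb* (0.952) and *Hpse* (0.950). For the IFITM genes, *Ifitm3* was closest to RP24-531B21.3 (0.969), *Parp8* (0.955) and the macrophage marker *Cd68* (0.949). Without replicate 5 these values were 0.891, 0.841 and 0.878, at ranks 11, 44 and 16. *Ifitm2* was closest to RP23-309N14.1 (0.956), *Stc1* (0.933) and *Mex3c* (0.928). *Samhd1* was closest to AC121564.2 (0.958), the collagen gene *Col5a1* (0.938) and *Boc* (0.936). Some of these genes had low levels, with means over the 11 tumors of 0.957 CPM for *Sh2d4b* and 0.851 CPM for *Hpse*. Among the genes of highest r, *Trafd1*, *Stat2*, *Apol9b*, *Oasl2* and *Ddx60* were themselves lower in knockout tumors by edgeR. *Ddx60* did not pass without knockout replicate 3, 4 or 5 (-1.93, -1.91 and -1.90) or wild-type replicate 3 or 4 (-1.74 and -1.94), with adjusted p up to 0.0573 from edgeR. Without replicate 5, *Il2rb* led for *Mx1* (0.976), RP23-309N14.1 for *Ifitm2* (0.938) and AC121564.2 for *Samhd1* (0.951), and the leading genes of *Ifitm3*, *Bst2* and *Rsad2* changed.

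Promoter windows of RefSeq (GRCm38.p6, 250 bases before the start) were matched for 6 of the 8 genes by symbol; *Mx1* and *Mx2* were not matched. They were searched on both strands for GAAANNGAA, the core of the interferon-stimulated response element, and TTCNNNGAA, the gamma-activated site, which can overlap each other. GAAANNGAA was found in the windows of *Ifitm2*, *Bst2* and *Rsad2*, 3 of 6, where 7.13% of all 32851 windows hold it. TTCNNNGAA was found in those of *Bst2* and *Samhd1*, 2 of 6, where 7.02% of all windows hold it. With the 50 bases after the start included, *Ifitm3* also held GAAANNGAA, at 2 and at 19 bases past its start, 4 of 6 genes where 8.56% of windows hold it. It also held TTCNNNGAA there, at 13 bases past its start, 3 of 6 genes where 8.3% of windows hold it. Of the 3 genes with GAAANNGAA before the start, *Bst2* and *Rsad2* passed edgeR's test and *Ifitm2* did not. No match was found for *Cmpk2*, which passed. The part of these motifs in the levels of the genes was not tested. The windows of the 3 genes are shown 5′ to 3′ on the strand of the gene, with GAAANNGAA or its reverse complement in capitals. The *Bst2* window (chr8:71537473-71537722, minus strand) holds the core at a pair of overlapping positions, the *Rsad2* window (chr12:26456453-26456702, minus strand) holds it on the opposite strand, and the *Ifitm2* window (chr7:140955962-140956211, minus strand) holds it close to the start.
Bst2: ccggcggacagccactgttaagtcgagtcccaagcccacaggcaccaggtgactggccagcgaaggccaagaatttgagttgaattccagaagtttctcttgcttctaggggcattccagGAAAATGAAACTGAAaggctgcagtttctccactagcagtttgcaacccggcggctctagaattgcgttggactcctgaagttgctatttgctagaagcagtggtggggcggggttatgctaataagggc
Rsad2: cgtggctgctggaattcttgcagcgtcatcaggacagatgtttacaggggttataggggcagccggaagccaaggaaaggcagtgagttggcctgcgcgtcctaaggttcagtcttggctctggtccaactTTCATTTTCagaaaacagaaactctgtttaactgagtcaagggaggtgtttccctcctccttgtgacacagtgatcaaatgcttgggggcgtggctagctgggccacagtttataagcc
Ifitm2: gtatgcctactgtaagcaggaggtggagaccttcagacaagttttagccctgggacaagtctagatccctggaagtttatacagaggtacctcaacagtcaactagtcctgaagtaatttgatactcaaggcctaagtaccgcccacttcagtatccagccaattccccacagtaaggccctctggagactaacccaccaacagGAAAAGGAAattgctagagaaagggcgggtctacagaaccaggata

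Markers of the cell types that a mammary tumor can hold were examined in the same tumors. Of 78 markers in 13 lists, 55 were tested and none passed edgeR's test, with 2 lower and 4 higher at an unadjusted p under 0.05. DESeq2 gave 4 higher and 0 lower, and limma-voom 5 higher and 1 lower. Of all genes tested, 10.5% were lower and 8.19% higher at that unadjusted p. DESeq2 gave 3.96% lower and 2.63% higher over all genes, and limma-voom 6.19% and 5.03%. The 8 macrophage markers summed to 436 ± 100 CPM (SD, n = 6) in knockout and 302 ± 99.9 CPM (SD, n = 5) in wild-type tumors, and no macrophage marker was at 0. Most of this difference lay in *Lyz2*, at 193 ± 36.9 CPM (SD, n = 6) against 94.4 ± 41.3 CPM (SD, n = 5); the other 7 summed to 242 ± 67.2 and 207 ± 61.9 CPM (SD, n = 6 and 5). All 8 had log2 fold changes above 0.

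The lymphoid and granulocyte markers had low sums in both groups. T cell markers, led by *Cd8a*, summed to 5.63 ± 1.54 CPM (SD, n = 6) and 6.45 ± 2.71 CPM (SD, n = 5), with *Cd3d* and *Cd8b1* at 0 in at least 1 tumor. NK cell markers, led by *Eomes*, summed to 1.53 ± 0.948 and 1.89 ± 0.974 CPM, B cell markers, led by *Pax5*, to 0.960 ± 0.578 and 1.23 ± 0.576 CPM, and neutrophil markers, led by *S100a8*, to 1.44 ± 0.599 and 1.87 ± 2.11 CPM (SD, n = 6 and 5). The wild-type mean of neutrophil markers rested on replicate 2, with 5.6 CPM against 1.1, 1.14, 0.364 and 1.16 CPM in replicates 1, 3, 4 and 5. Those other wild-type tumors lay below the knockout mean. Conventional dendritic cell markers, led by *Zbtb46*, summed to 20.5 ± 6.47 and 21.6 ± 4.49 CPM (SD, n = 6 and 5). Basal epithelial markers, led by *Oxtr*, summed to 319 ± 104 and 376 ± 276 CPM, endothelial markers, led by *Cdh5*, to 54.6 ± 15.6 and 63.4 ± 14.2 CPM, fibroblast markers, led by *Col1a1*, to 504 ± 130 and 425 ± 124 CPM, and adipocyte markers, led by *Cfd*, to 12.9 ± 13.8 and 23.0 ± 32.4 CPM (SD, n = 6 and 5). The wild-type mean of adipocyte markers rested on replicate 3, with 80.7 CPM against 6.49, 4.17, 13.2 and 10.4 CPM in replicates 1, 2, 4 and 5. Wild-type replicate 1 held 831 CPM of basal markers, and the other wild-type tumors at most 387 CPM. The sums of each of the 13 lists overlapped between the groups, and their part in the levels of the 8 genes was not tested.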

How the data were processed

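Libraries from 11 tumors were poly(A)-enriched, stranded and of a single batch, per the labels. The values per gene are estimated counts, which the authors derived from paired-end reads that Bowtie2 had placed on GRCm38, and CPM, which the authors deposited as well and which equal the estimated counts over their column sum. The counting method, its use of strand and the annotation version are not given in the sources used here, so reads of paralogs and of antisense genes may be shared.

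After rounding, edgeR 4.0.16 (R 4.3.3) was run with TMM factors, filterByExpr at its defaults, genotype as the sole term and Benjamini-Hochberg adjustment over all genes kept; genes under an adjusted p of 0.05 passed. SE values follow from the estimate and its F. Within-tumor ratios were tested by exact permutation. The edgeR, DESeq2 and limma-voom fits were first tested on simulated data; the other fits and the permutation test were not. Alternatives were DESeq2 1.42.0, limma 3.58.1 (voom with sample quality weights, and log2 CPM with 1 or 0.1 added), upper-quartile factors, library size only, other filters, protein-coding genes only, the replicate block, and omission of each tumor. Merged exon lengths came from GENCODE for GRCm39 by Ensembl identifier. Gene ends were taken as 1 before the deposited stop, where 4728 genes end in RefSeq; 407 end at the stop itself.

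The 8 genes and all lists were chosen with earlier results of these data known. The rule for named genes takes the 8 genes, *Pcbp1*, *Cmpk2*, genes of the lists that passed (or the most abundant of a list), neighbors within 100 kb that passed, and the 3 genes of highest r for each of the 8 with a mean of at least 5 CPM; not every gene it takes is named, and other genes named were chosen after their values were seen.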

Additional observations from a re-analysis of the deposited data

Results flagged for a closer look

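*Bst2* in knockout replicate 1, at 6.92 CPM, lay far from the other tumors of its genotype, of which the nearest had 4.17 CPM; the gap was 0.727 of the range of the group. It was found among 20 groups of values examined (10 genes in each genotype), and chance gives about 1 in 20. Without this tumor the log2 fold change of *Bst2* was -1.90.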

How the results depend on the processing

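*Mx1*, *Mx2*, *Bst2* and *Rsad2* passed with each tumor left out and under each alternative other than the replicate block. *Ifitm3* also passed with DESeq2 (-0.93), limma-voom (-0.97) and without wild-type replicate 5, with a range of -1.13 to -0.77 over single omissions, and *Samhd1* with limma-voom (-0.58), and neither under the other alternatives. *Ifitm2* turned sign with limma-voom (0.008) and ranged from -0.103 to 0.071, *Dnm1l* from -0.036 to 0.069 and *Ifitm10* from -0.058 to 0.307. Over single omissions the ratio differences ranged from -0.352 to 0.076 for *Mx1* to *Mx2*, from -0.134 to 0.238 for *Ifitm1* to *Ifitm2* and from 0.762 to 1.039 for *Ifitm2* to *Ifitm3*; with 1 CPM added, that of *Mx1* to *Mx2* was -0.457. Over 42 other genes that the naming rule takes, not all of them named above, 776 of 881 values kept direction and side of the threshold, 99 no longer passed and 6 turned sign. Of those not named above, *Parp14* passed in 3, *Parp12* in 4, and *Irgm1* and *Rtp4* in 9 of 11 omissions.

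Genes lower and higher numbered 730 and 486 with DESeq2, 1190 and 968 with limma-voom, and 144 to 389 and 41 to 187 with a tumor left out; the cause was not tested. Replicate numbers did not pair the tumors: same-numbered tumors correlated at 0.134, 0.0867, -0.0790, -0.144 and 0.293, and 2 of 5 wild-type tumors correlated best with their own number. With the replicate block, on 10 tumors, 118 genes were lower and 42 higher, and 2 of the 8 genes passed; *Mx2* (-1.98, adjusted p = 0.0692 from edgeR) and *Bst2* (-1.69, adjusted p = 0.0529 from edgeR) did not, and *Ifitm2* had 0.014. *Stat2* (-1.37, adjusted p = 0.0564), *Athl1* (-0.92, adjusted p = 0.0717), *Ric8*, *Usp18*, *Ddx58*, *Zbp1*, *Ifih1*, *Ifit2* and *Dck* also did not pass with the block, with adjusted p from 0.0532 to 0.102 from edgeR. Of interferon signaling genes, 7 were lower with DESeq2 and 2 with the replicate block, of other effectors 18 with the block, and of neighbors 7 with limma-voom and 2 with the block, against 4, 28 and 4 in the report. Nucleotide supply genes, 1 lower and 1 higher in the report, numbered 2 lower and 5 higher with limma-voom; 4 were higher with DESeq2, 2 with limma on log2 CPM or library size only, and 0 with the block, upper-quartile factors or no filter. Depth limits *Ifitm1* and *Mx2* most, at 5 to 13 and 8 to 73 counts per tumor.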
